A study of Mus musculus with 143 samples.

Results

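The genes of antigen presentation by major histocompatibility complex (MHC) molecules were followed in single microglia of the developing mouse cerebellum. The members were 10 named rows of the deposited count table, of 23337 gene rows in all: 3 class I genes (B2m, H2-D1 and H2-K1), 3 class II chain genes (H2-Aa, H2-Ab1 and H2-Eb1), 3 class II loading genes (H2-DMa, H2-DMb1 and Cd74) and Ciita, the activator of class II transcription. They were taken by name, not by their values, and 9 of the 10 had a read in at least 1 cell.

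MHC class I molecules sit on nearly every nucleated cell and show peptides made inside the cell to cytotoxic T cells. Each is a heavy chain, H2-K or H2-D in C57BL/6 mice, bound to the light chain B2m. MHC class II molecules show peptides from endocytosed proteins to helper T cells and are typical of dendritic cells, B cells and activated macrophages. A class II molecule is an alpha and a beta chain, which in these mice are H2-Aa and H2-Ab1. The invariant chain Cd74 occupies the peptide groove during assembly, and the H2-DM dimer of H2-DMa and H2-DMb1 exchanges its remnant for a peptide. In C57BL/6 mice the beta chain H2-Eb1 has no partner on the cell surface, because the gene of its alpha chain is not expressed. Microglia are the resident macrophages of the brain, and in the healthy brain they are known for little surface class II.

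Per the labels, the cells came from cerebella of wild-type male C57BL/6N mice at postnatal day 7, pooled over animals. Single live cells with low CD45, CD11b, Gpnmb and Clec7a on their surface were sorted into wells, and their full-length cDNA was sequenced by the Smart-seq2 protocol, which tags no molecules. The 143 cells, 95 on plate 1 and 48 on plate 2, form 1 group with no other population beside it and no label that ties a cell to an animal. They were therefore treated as 1 sample, and values are described with no test between cells, with plates as technical batches. The age label gives postnatal day 7, although the name of a pooled library contains the word adult. Totals ran from 271190 to 1226521 counts per cell with a median of 760690, and the median cell had reads of 3255 genes. Of 10 listed markers of microglia, 9 were read in over 50% of cells. Csf1r, Fcrls, Trem2 and C1qa were read in 100% of cells and Cx3cr1 in 99.3%. P2ry12 was read in 88.1%, Sall1 in 58.7% and Tmem119 in only 25.9%. Levels are counts per 1000000 gene counts of the cell (CPM), and where genes are compared with each other the value per transcript length (CPM per kb) is given as well. Every interval is a 95% interval. For shares and ratios it is exact and covers counting error only. For medians it comes from order statistics and reflects the spread between cells. No interval covers differences between animals.

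Promoters are shown first, because class I and class II genes are known to share upstream elements, which a script located here. Of the 10 members, 7 had a promoter entry in RefSeq (GRCm38.p6): B2m, H2-D1, H2-K1, H2-Aa, H2-Eb1, H2-DMa and H2-DMb1. The 200 bases before each annotated start were searched on both strands for 5 motifs. These were the NF-kappaB site of class I enhancer A (GGGGATTCC), the core of an interferon response element (AANNGAAA), the core of the class II X1 box (AACNGATG), the half-site of the X2 box (TGACG) and the Y box (GATTGG). Capitals mark every match, and each line reads 5′ to 3′ along the gene.
H2-D1: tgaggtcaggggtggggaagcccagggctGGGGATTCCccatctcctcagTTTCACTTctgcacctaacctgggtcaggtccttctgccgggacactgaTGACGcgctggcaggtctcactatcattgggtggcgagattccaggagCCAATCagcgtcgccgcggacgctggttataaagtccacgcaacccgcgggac
H2-K1: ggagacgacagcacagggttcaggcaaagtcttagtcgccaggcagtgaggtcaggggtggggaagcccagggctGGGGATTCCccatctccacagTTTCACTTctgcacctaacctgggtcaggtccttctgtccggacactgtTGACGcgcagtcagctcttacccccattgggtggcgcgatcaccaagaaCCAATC
B2m: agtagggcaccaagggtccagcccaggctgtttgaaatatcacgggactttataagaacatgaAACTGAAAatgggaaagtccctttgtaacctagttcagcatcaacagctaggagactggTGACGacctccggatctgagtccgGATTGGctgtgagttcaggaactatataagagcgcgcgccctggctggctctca
H2-DMb1: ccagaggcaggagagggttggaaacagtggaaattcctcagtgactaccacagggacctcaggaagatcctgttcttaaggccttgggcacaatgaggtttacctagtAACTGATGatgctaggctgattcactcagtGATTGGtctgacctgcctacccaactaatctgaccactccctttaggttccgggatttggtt
H2-Eb1: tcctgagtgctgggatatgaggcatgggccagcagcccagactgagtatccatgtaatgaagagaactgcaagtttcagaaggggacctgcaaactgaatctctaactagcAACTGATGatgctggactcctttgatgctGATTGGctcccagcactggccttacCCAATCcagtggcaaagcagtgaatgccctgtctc
H2-Aa: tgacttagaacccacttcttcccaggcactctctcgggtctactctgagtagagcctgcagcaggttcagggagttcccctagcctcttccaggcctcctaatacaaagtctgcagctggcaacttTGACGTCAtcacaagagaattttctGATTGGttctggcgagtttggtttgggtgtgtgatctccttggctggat

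These windows lie at chr17:35262894-35263093 (plus strand) for H2-D1, chr17:34000334-34000533 (minus) for the second of 2 entries of H2-K1, and chr2:122147487-122147686 (plus) for B2m. Those of the class II genes lie at chr17:34152991-34153190 (plus) for H2-DMb1, chr17:34305667-34305866 (plus) for H2-Eb1 and chr17:34287824-34288023 (minus) for H2-Aa. The enhancer A site was in the windows of H2-D1 and H2-K1 and in 0.155% of 32851 promoter windows of the same length. Both heavy chains and B2m also held the interferon core (17.02% of all windows), the X2 half-site (15.7%) and the Y box letters GATTGG (12.9%). The exception was the first of the 2 entries of H2-K1, whose window starts further upstream and held no match to GATTGG. The letters GATTGG matched the plus strand in B2m but the minus strand, as CCAATC, in H2-D1 and H2-K1. The windows of H2-D1 and H2-K1 also hold ATTGG, within cattgg, on the plus strand after the X2 half-site. The search word GATTGG did not cover this, so the strand of the Y box was not compared. The X1 core was in H2-DMb1 and H2-Eb1 and in 1.55% of all windows, and the Y box was in H2-DMb1, H2-Eb1 and H2-Aa. In H2-Aa the X2 half-site matched both strands at overlapping positions. H2-DMa had 2 entries, the first with no match and the second with the interferon core and the Y box. In that second entry the interferon core matched as TTTCTTTT within a run of T. Its Y box lay at the far edge of the window, −199 to −194 bases from the start. A match describes letters in the window, not a bound site, and no binding was measured here.

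Class I transcripts were read in every cell. B2m, the light chain, lies on chromosome 2 from 122147686 to 122153083 (GRCm38). It was read in 143 of 143 cells, with a lowest level of 475 CPM, a median of 1510 CPM and a highest level of 3231 CPM. Its quartiles, 1239 and 1769 CPM, lay close to the median, and the plate medians were 1500 CPM on plate 1 and 1573 CPM on plate 2. Per transcript length B2m ranked 26 of 10923 genes, at 1767 CPM per kb.

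H2-D1, the D heavy chain, lies on chromosome 17 from 35262730 to 35267499. Reads of it were found in all but 4 of 143 cells (97.2%, interval 92.99 to 99.2), with a lowest level of 0, a median of 916 CPM and a highest level of 5243 CPM. H2-K1, the K heavy chain, lies on the same chromosome from 33996017 to 34000347. Reads of it were found in all but 27 cells (81.1%, 73.7 to 87.2), with a lowest level of 0, a median of 212 CPM and a highest level of 1127 CPM. Where H2-K1 was read at all, its median was 285 CPM from 200.5 reads, and 6 of those cells had fewer than 10 reads. The heavy chains were thus spread more widely over cells than B2m, with quartiles of 584 and 1538 CPM for H2-D1 and of 68.9 and 387 CPM for H2-K1. Pooled over cells and per length, B2m stood at 1767 CPM per kb, H2-D1 at 542 CPM per kb and H2-K1 at 158 CPM per kb. The summed heavy chains were below B2m per length in 140 of 143 cells and above it in 3.

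**Figure D1:**
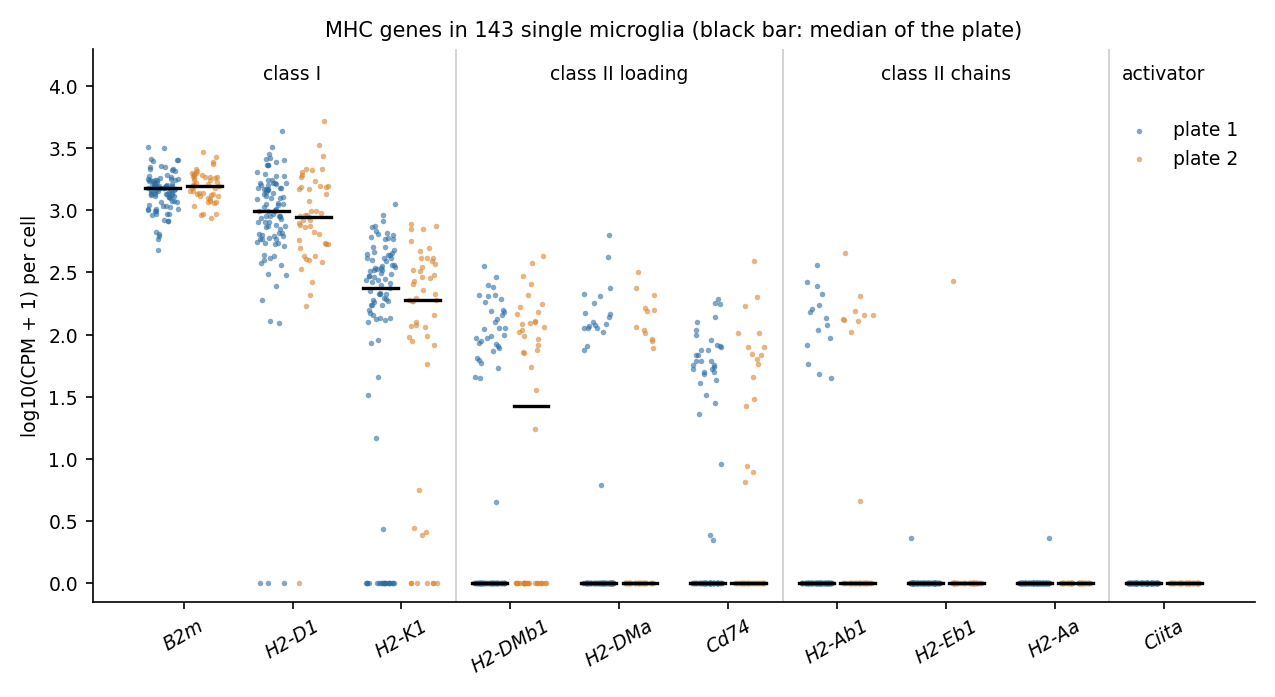
Level of each of the 10 MHC genes in each of 143 cells as log10(CPM + 1), with plate 1 and plate 2 side by side and a black bar at the median of each plate. B2m fills a narrow band in every cell, H2-D1 spreads on both sides of that band (up to 5243 CPM) and H2-K1 mostly below it, each with some cells at 0, and the class II genes split into cells at 0 and cells near 100 CPM, with Ciita at 0 throughout.

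H2-D1 exceeded H2-K1 in most cells. On the scale of log2(CPM + 1), the median difference of H2-D1 minus H2-K1 was 2.31 (interval of the median 1.97 to 2.57), with 2.16 on plate 1 and 2.51 on plate 2. Per transcript length, on log2(CPM per kb + 1), the median was 1.93 (1.59 to 2.19), with H2-K1 higher in 10 cells and H2-D1 in all the others. The pooled counts gave a ratio of 4.45, or 3.43 per length. In the cells with reads of both genes, the median log2 difference was 2.01, with quartiles of 1.28 and 2.74. The heavy chains are near-identical in places. Of the 50-base words of the H2-D1 transcript, 14.3% also occur in transcripts of other genes, most often H2-Q1, and for H2-K1 it was 8.79%, most often H2-D1. The sources used here do not say how reads in such stretches were assigned, so the ratio carries that uncertainty.

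**Figure D2:**
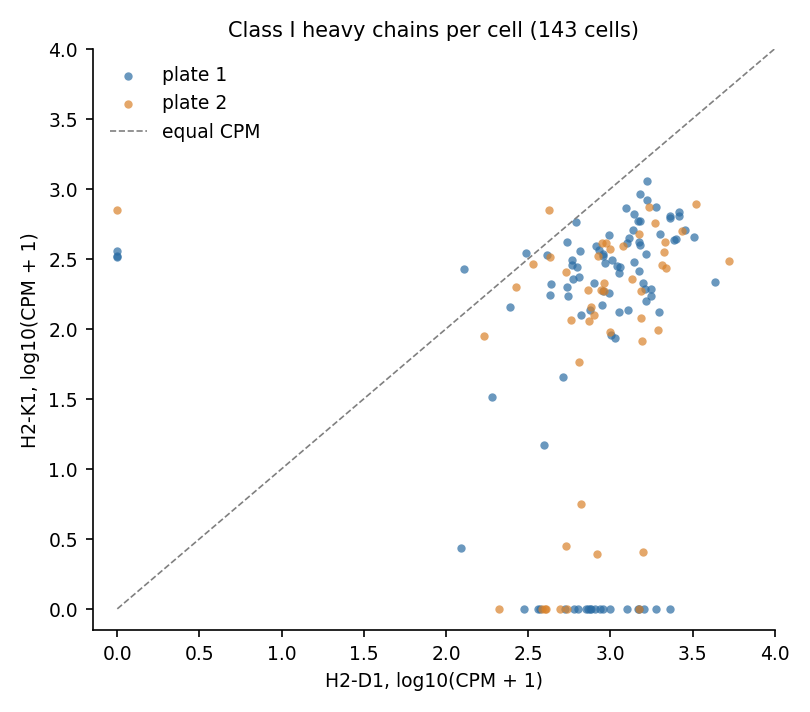
H2-D1 (horizontal axis) against H2-K1 (vertical axis) in each of 143 cells, both as log10(CPM + 1), with cells of plate 1 and plate 2 in 2 colours and a dashed line at equal CPM. Most cells lie under the line, 27 cells lie on the floor with no read of H2-K1, and 4 cells lie on the left edge with no read of H2-D1.

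No cell lacked both heavy chains. The 4 cells without H2-D1 all had B2m (747 to 1129 reads) and H2-K1 (323 to 708 CPM), and the 27 cells without H2-K1 all had H2-D1. Together, B2m and at least 1 heavy chain were read in 143 of 143 cells (97.5 to 100%), and all 3 class I genes in all but 31 cells (78.3%, 70.7 to 84.8).

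Summed over its 3 genes, class I had a lowest level of 1349 CPM, a median of 2639 CPM (interval of the median 2443 to 2946) and a highest level of 8249 CPM. The plates did not stand apart, with medians of 2645 CPM on plate 1 and 2583 CPM on plate 2. Class I took 0.291% of all gene counts. As a description across 143 cells that share a pool, library plates and the total that scales them, Spearman's rho with ranks taken within plates was 0.38 between H2-D1 and H2-K1. It was 0.24 between B2m and H2-D1 and 0.18 between B2m and H2-K1. Scaled to the spike-in RNA of the well in place of the total, these were 0.38, 0.33 and 0.08. The summed class I level ran against the summed S phase genes, which act in DNA replication (rho −0.33), against the G2/M genes of mitosis (−0.26) and against the number of genes read (−0.25). The part of depth and of the cell cycle in the spread of class I was not tested.

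Class II transcripts were read in fewer cells and at lower levels, the loading genes in more cells than the chains. H2-DMb1, the beta chain of the H2-DM dimer, lies on chromosome 17 from 34153072 to 34160230 and was read in 60 of 143 cells (42.0%, 33.8 to 50.5). In those 60 cells its level had a lowest value of 3.46 CPM, a median of 111.7 CPM and a highest value of 429 CPM. It was read in 36.8% of cells on plate 1 and in 52.1% on plate 2, and the intervals of the plates overlap. Of its 50-base words, 27.2% also occur in H2-DMb2, the neighbouring copy, which was read in 11 cells (7.69%). The levels of H2-DMb1 and H2-DMb2 had a rho of 0.16 over the 143 cells.

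H2-DMa, the alpha chain of the dimer, lies on chromosome 17 from 34119541 to 34139101 and was read in 32 cells (22.4%, 15.8 to 30.1). Where read, its level had a lowest value of 5.096 CPM, a median of 123.4 CPM and a highest value of 637 CPM. An exon of Brd2 overlaps H2-DMa on the other strand, and whether counting used strand is not given. The levels of H2-DMa and Brd2 had a rho of −0.02 over the 143 cells.

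Cd74, the invariant chain, was read in 51 cells (35.7%, 27.8 to 44.1), with 35.8% on plate 1 and 35.4% on plate 2. Where read, its level had a lowest value of 1.21 CPM, a median of 60.6 CPM and a highest value of 393 CPM, and 6 of the 51 cells had fewer than 10 reads. An exon of the microRNA gene Mir5107 overlaps Cd74 on the same strand. Pooled per length, H2-DMb1 stood at 40.5 CPM per kb, H2-DMa at 21.8 CPM per kb and Cd74 at 17.9 CPM per kb.

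Among the chains, nearly all reads belonged to H2-Ab1. This beta chain lies on chromosome 17 from 34257689 to 34269419 and was read in 25 cells (17.5%, 11.6 to 24.7), 15 on plate 1 and 10 on plate 2. In those 25 cells it had a lowest level of 3.57 CPM, a median of 133.7 CPM from 98 reads, and a highest level of 455 CPM. Its partner H2-Aa, on chromosome 17 from 34282744 to 34287823, had 1 read in 1 of 143 cells (0.699%, 0.0177 to 3.83), against 3045 reads of H2-Ab1 in all. Per length that is 0.00859 CPM per kb for H2-Aa and 24.3 CPM per kb for H2-Ab1. H2-Eb1, on chromosome 17 from 34305867 to 34316674, was read in 2 cells (1.40%), with 158 reads in 1 of them and 1 read in the other. No 50-base word of H2-Aa, H2-Ab1 or H2-Eb1 occurs in another gene, and no other annotated exon overlaps them.

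Ciita, which turns on the class II chains, Cd74 and the H2-DM genes in dendritic cells and B cells, lies on chromosome 16 from 10480059 to 10528418. It had no read in 143 cells, which allows a share of up to 2.55% of cells with a read. An exon of Dexi overlaps Ciita on the other strand, and the use of strand in counting is not given.

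Class I and class II were far apart in total. The class I genes had 300899 reads over the 143 cells, against 15421 for the 7 class II genes, of which 12216 were of loading genes and 3205 of chains. Class II made up 4.88% of the MHC reads (4.800 to 4.95), with 4.41% on plate 1 and 5.83% on plate 2, and 4.102% after division by transcript length. That interval counts every read as independent, which reads of 1 molecule are not, so it is too narrow. Both plate values lie outside it. Per cell, summed class I had a median of 2639 CPM, against 126.3 CPM for summed class II, whose lowest level was 0 and whose highest was 672 CPM. Per length, the median class II share of a cell's MHC level was 3.32%. Class II stayed below class I in every one of the 143 cells on the CPM scale and per length, and the largest class II share in a cell was 26.3% of the MHC level in CPM, or 25.98% per length. The summed levels of the classes had a rho of −0.13 over cells.

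The share of cells with a read was set beside the level, since a gene with few reads is missed in many cells. Each share was compared with the median share over the 201 genes nearest in pooled CPM. H2-K1 was read in 81.1% of cells, against a running median of 84.6%. H2-DMb1 was read in 42.0% against 38.5%, H2-DMa in 22.4% against 26.6%, Cd74 in 35.7% against 21.0% and H2-Ab1 in 17.5% against 24.5%. For Cd74 the running median lay below the interval of the share (27.8 to 44.1). For H2-K1, H2-DMb1, H2-DMa and H2-Ab1 it lay inside the interval. H2-D1 departed the other way: it was read in 97.2% against 99.30%, just above its interval (92.99 to 99.23). The 5 highest cells held 40.0% of the summed H2-Ab1 level and 35.5% of that of H2-DMa. For Cd74 they held 29.2%, for H2-DMb1 21.5% and for B2m 6.65%.

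**Figure D3:**
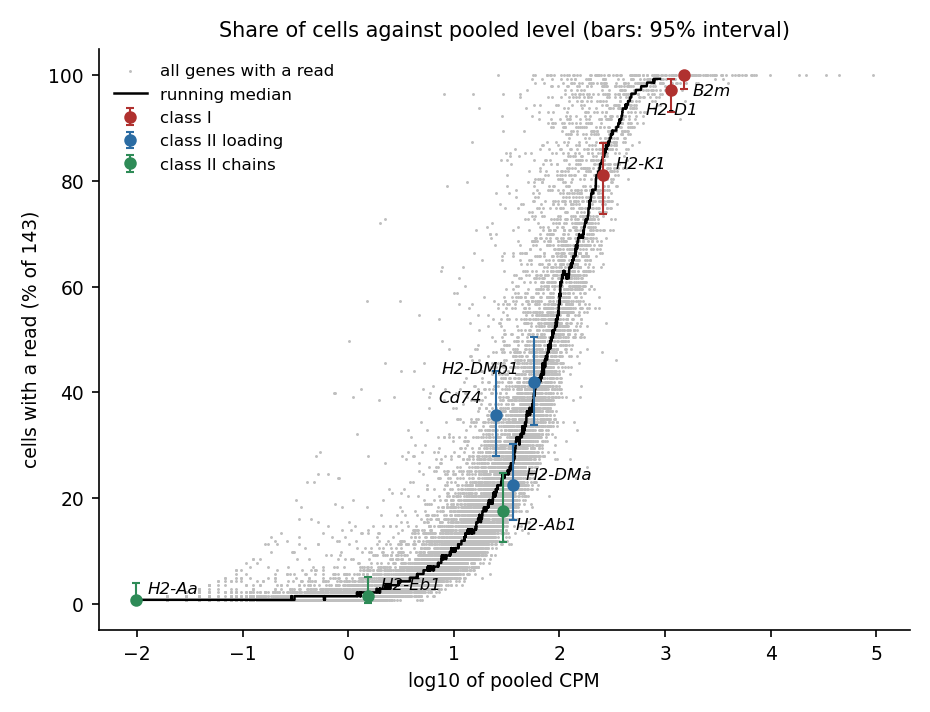
Share of the 143 cells with a read (vertical axis, %) against log10 of the pooled CPM (horizontal axis), with all genes in grey, their running median over 201 genes in black, and 9 MHC genes in colour with exact 95% intervals. Cd74 lies above the running median with its whole interval (35.7% against 21.0%), and H2-D1 lies below it with its whole interval (97.2% against 99.30%). The intervals of H2-K1, H2-DMb1, H2-DMa and H2-Ab1 include the running median.

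Loading genes were read in more cells than chains, and most cells with a loading gene had no chain. Chains were read in only 18.2% of all cells, so independent detection would also leave most cells with a loading gene without a chain. At least 1 loading gene was read in 70.6% of cells (62.4 to 77.9), all but 42, against 26 cells with a chain (18.2%, 12.2 to 25.5). A loading gene without a chain was found in 83 cells (58.04%), both in 18 (12.6%), a chain without a loading gene in 8 (5.59%), and none of the 7 class II genes in 34. Both chains of the dimer, H2-Aa and H2-Ab1, were read in 1 cell (0.699%, 0.0177 to 3.83), and both subunits of H2-DM in 15 (10.5%, 5.99 to 16.7). All 3 loading genes were read in 5 cells, and no cell had reads of H2-Ab1 and all 3 loading genes (0 of 143, up to 2.55%). Under independent detection only 1.06 cells would have any 4 of the class II genes. The number of class II genes read in a cell had a rho of 0.37 with the number of all genes read and of 0.40 with gene counts per spike-in count. The part of RNA content and detection in these shares was not tested.

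**Figure D4:**
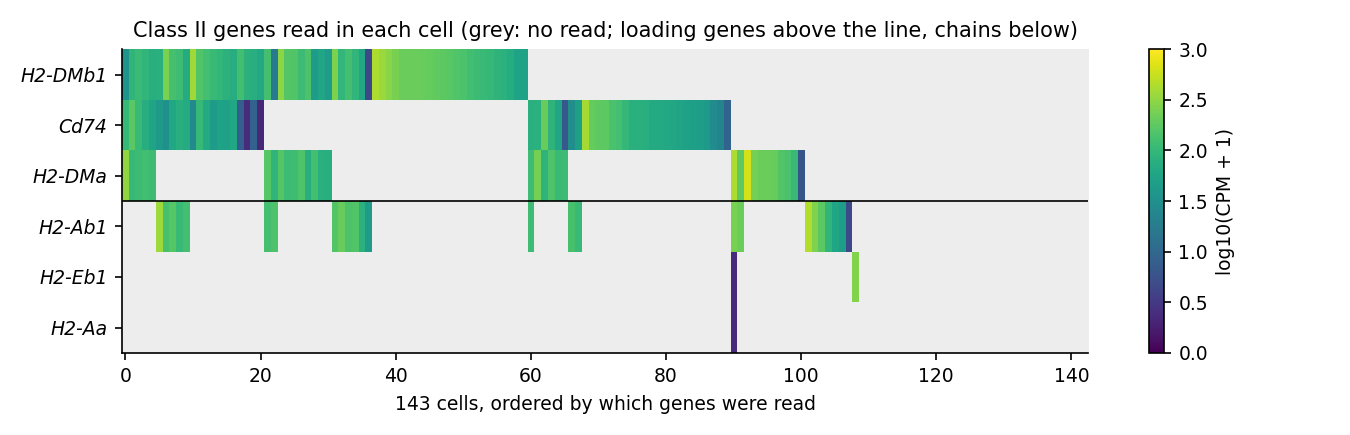
The 6 class II genes with a read, 1 per row, in each of 143 cells, 1 per column, coloured by log10(CPM + 1), with grey where there was no read and a line between loading genes and chains. Cells are ordered by which genes were read, and the filled blocks of H2-DMb1 (60 cells), Cd74 (51), H2-DMa (32) and H2-Ab1 (25) overlap only in part.

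Within single cells the class II genes were read together about as often as independent detection would give. Of the cells, 34 had none of the class II genes, 62 had 1, 33 had 2, 13 had 3 and 1 had 4, against 33.7, 59.99, 37.99, 10.2 and 1.06 cells under independence. H2-DMa and H2-DMb1, which act only as a dimer, were read together in 15 cells against 13.4 under independence (ratio 1.12, interval 0.638 to 1.78 with the shares of the genes held fixed). H2-Ab1 and Cd74 were read together in 8 cells against 8.92 (ratio 0.897, 0.392 to 1.72). H2-DMb1 and Cd74 were read together in 21 cells against 21.4, H2-DMa and Cd74 in 11 against 11.4, H2-Ab1 and H2-DMa in 5 against 5.59, and H2-Ab1 and H2-DMb1 in 13 against 10.5. The 6 ratios ran from 0.894 to 1.24, and every interval included 1. Within plates the H2-DM dimer was read whole in 9 cells against 7.37 on plate 1 and in 6 against 6.25 on plate 2.

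How far such ratios go in these cells was read from other genes. The 6 class II pairs had a median ratio of 0.973. For 5591 genes read in 10 to 50% of cells, the median ratio with each of H2-Ab1, H2-DMa, H2-DMb1 and Cd74 lay between 1.05 and 1.12, and its range from the 5th to the 95th percentile was widest for H2-Ab1 (0.545 to 1.74). Among 20 genes of the G2/M phase, which are known to be transcribed together, the 190 pairs had ratios between 1.75 and 5.55 with a median of 3.42. Some intervals of the class II pairs reached into that range. The upper limits were 2.05 for H2-Ab1 with H2-DMb1, 2.04 for H2-Ab1 with H2-DMa and 1.78 for H2-DMa with H2-DMb1. For H2-Aa and H2-Ab1 the single shared cell gives a ratio of 5.72 with an interval of 0.145 to 31.4, so 1 read of H2-Aa does not settle whether the dimer's genes were read together.

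**Figure D5:**
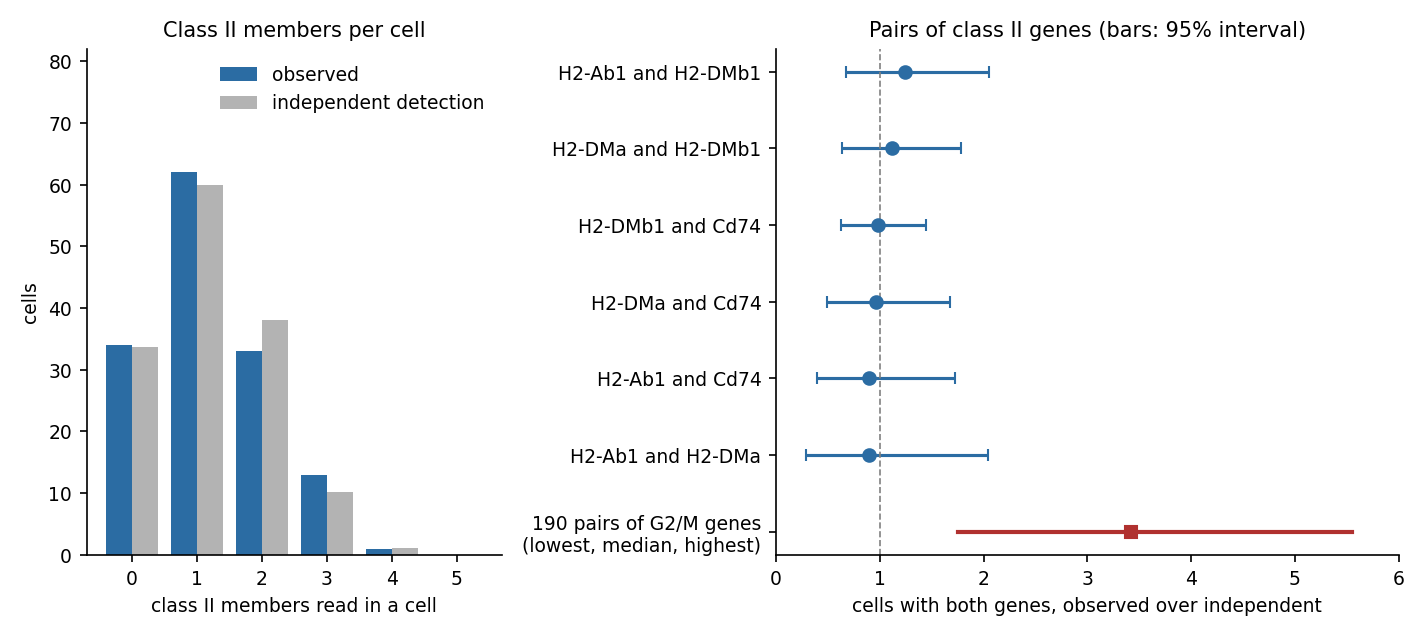
Left, the number of cells (vertical axis) with 0 to 5 class II genes read (horizontal axis), observed beside independent detection. Right, the ratio of observed to independent cells for 6 pairs of class II genes with 95% intervals, and for 190 pairs of G2/M genes their lowest, median and highest ratio. The class II ratios lie between 0.894 and 1.24, with intervals that reach up to 2.05, and the G2/M ratios between 1.75 and 5.55.

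The cells with the rarest chains were looked at one by one, after their values had been seen. The only cell with H2-Aa, on plate 1, also had the highest summed class II level, 672 CPM, with 189 reads of H2-Ab1, 325 of H2-DMa and 1 each of H2-Aa and H2-Eb1. It had no read of H2-DMb1, Cd74 or Ciita. Of the markers of other cells, it had 385 reads of Cd79b and 434 of Stab1, and no read of Mrc1 or Ms4a7. The cell with 158 reads of H2-Eb1, on plate 2, had no other class II read. It held 915 reads of Mrc1, a mannose receptor typical of border-associated macrophages, and also reads of Ms4a7 and 363 of Stab1, other genes of those cells. Over all 143 cells, Mrc1 was read in 55.9%, Ms4a7 in 21.0% and Stab1 in 87.4%. Of the same marker list, Cd163, Lyve1 and Cd209f were at 0 in every cell. The H2-Aa cell and this H2-Eb1 cell both carried the microglial genes Cx3cr1 (3319 and 2177 reads), P2ry12 (873 and 485) and Trem2 (1625 and 1611). The next cell by class II level, at 637 CPM, owed it to 391 reads of H2-DMa alone.

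Other genes of the class I pathway were read in most cells for protein folding and in few for peptide transport. Of 14 listed genes of class I peptide supply and loading, 8 were read in over 50% of cells and 4 in over 90%. The chaperones Canx and Pdia3 were read in 100% of cells and Calr in 98.6%. Tapbp, which tethers the heavy chain to the peptide transporter, was read in 89.5% with a median of 207 CPM. The proteasome activator subunits Psme2 and Psme1 were read in 90.9% and 67.8%, and the immunoproteasome subunits Psmb8, Psmb10 and Psmb9 in 88.1%, 53.1% and 33.6%. The transporter subunits Tap1 and Tap2 were read in 16.1% and 24.5%, and together in 6 cells against 5.63 under independence. Nlrc5, the activator of class I transcription, was read in 2.098%.

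Of 14 other class I and class I-like genes in the table, 2 were read in over 50% of cells. They were Fcgrt, the neonatal receptor for IgG (66.4%, median 168 CPM), and H2-T23, the ligand of inhibitory receptors on natural killer cells (58.7%, median 40.8 CPM). H2-M3, which presents formylated peptides, was read in 25.9%, and 1 gene, H2-Q7, had no read.

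The proteases that supply class II peptides were abundant. Of 9 listed genes of class II peptide supply in the table, not all of them proteases, 5 were read in 100% of cells. These were Ctss, the protease that trims the invariant chain, with a median of 2300 CPM, and Ctsl, Lgmn, Ctsb and Ctsd. The medians of Ctsl, Lgmn, Ctsb and Ctsd lay between 4957 and 21684 CPM. Ifi30, a thiol reductase of the endosome, was read in 81.1%. The other class II genes were sparse. H2-Ob and H2-Oa, the subunits of the H2-DM inhibitor H2-O, were read in 11.9% and 4.90% of cells, and H2-Eb2 and H2-Ea-ps in 0 of 143.

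Among 14 regulators of MHC transcription, 3 were read in over 50% of cells. They were the myeloid factors Sfpi1 (now Spi1, 95.8%, median 402 CPM) and Irf8 (89.5%, 351 CPM) and the interferon regulatory factor Irf2 (53.1%). The X box factors Rfxank, Rfx5 and Rfxap, which recruit Ciita to class II promoters, were read in 25.2%, 2.80% and 2.098% of cells, and Irf1 in 9.09%. The receptor chains for interferon gamma, a known inducer of Ciita, were read in 92.3% (Ifngr1) and 90.2% (Ifngr2) of cells, and its kinase Jak1 in 69.2%. The transcript of interferon gamma itself, Ifng, was read in 0 of 143 cells. Of 9 costimulation genes, which help to activate T cells, Cd86 was read in 90.9% and Cd83 in 80.4%, against 6.29% for Cd80 and 0.699% for Cd40.

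The genes most like the summed class I level across cells were Ctss (rho 0.43), Apoe (0.42), Ctsb (0.39), App (0.35) and Cd83 (0.34). They include 2 lysosomal proteases, the apolipoprotein Apoe and the dendritic and microglial surface protein Cd83. These rank correlations were taken for 7782 genes read in at least 10% of the 143 cells, with ranks within plates, and their median was −0.04 with a 95th percentile of 0.13. With spike-in scaling the same 5 genes had 0.52, 0.48, 0.61, 0.23 and 0.34, against a median of 0.07 and a 95th percentile of 0.24 over all genes, so that App lay below that percentile. For the summed level of Cd74 and the chains, the leading genes were Med27 (0.33), Dusp19 (0.33), Srek1 (0.33), Wbscr22 (0.33) and Srrm2 (0.32). Those are weak relations in sparse counts. On plate 2 alone, 0 of the 5 genes were among the leading 5, for class I as for class II. H2-DMa and H2-DMb1, which were not in that sum, had rho values of 0.02 and −0.08 with it.

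Markers of other immune cells, only some of which typically carry class II, were checked beside these results. For T and NK cells, 6 of 6 listed markers in the table were at 0 in all cells. For B cells Cd79a, Ms4a1 and Pax5 were at 0, and Cd79b was read in 37.1%. For dendritic cells 4 of 8 were at 0, Flt3, Cd209a, Ccr7 and Clec9a, while Siglech, which microglia also express, was read in 69.2%. For border-associated macrophages 3 of 10 were at 0, Cd163, Lyve1 and Cd209f, while Stab1 was read in 87.4%, Mrc1 in 55.9% and Ms4a7 in 21.0%. The summed level of that list ran from 0 to 3382 CPM over cells, with a median of 434 CPM. For monocytes 3 of 7 were at 0, Ly6c2, Plac8 and Chi3l3, and Ccr2 was read in 3 cells. H2-Ab1 was read together with Mrc1 in 12 cells against 13.99 under independence and with Cd79b in 11 against 9.27, and Cd74 with Mrc1 in 32 against 28.5.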

How the data were processed

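The authors deposited 1 table of read counts per gene and cell, and whole numbers are what it holds. Per the submitters' processing notes, the genome build was mm10 and the tools included HTSeq, Picard, STAR 2.5.3a and Trim Galore 0.4.3. Their order and settings, the gene annotation and the use of strand are not given in the sources used here. From the deposited counts, CPM were computed over gene rows, with the 92 spike-in rows left out and the ribosomal RNA precursor Rn45s kept in. No cell was removed. A gene was read in a cell with at least 1 count. Shares have exact Clopper-Pearson 95% intervals and medians have order-statistic intervals. Reads of 1 molecule are not independent, and pooling hides any spread between animals.

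Lengths, exons and coordinates came from GENCODE M21 on GRCm38, with the principal transcript of each gene, and 50-base words were compared over all transcripts. Promoters came from RefSeq (GRCm38.p6). Log2 differences used a pseudocount of 1 CPM. Independent co-detection is the product of the shares of both genes times the number of cells. Spearman's rho used ranks within plates. The ranking of genes by rho and the co-detection ratio were tested on simulated data, and the other steps were not.

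The members and gene lists were chosen with earlier results of these data known. The rule for named genes takes the 10 members, list genes read in 50% of cells or more (otherwise the leading gene), markers of other cells read in over 20%, and the 5 genes most like each class. Cell cycle genes are given as summed lists, and further list genes and single cells were named after their values were seen. A few list genes are not reported here. Alternatives were plates alone, cells under 2500 genes left out, other detection limits, thinning, other scalings and another pseudocount. The union of exon lengths and the omission of H2-DMa were added after the data were seen. Analyses used Python 3.11.15, numpy 2.4.6, pandas 2.3.3, scipy 1.17.1 and matplotlib 3.10.9.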

Additional observations from a re-analysis of the deposited data

How the results depend on the processing

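The share of cells with a class II chain, with Cd74 and with both subunits of H2-DM, and the median class I level, stayed inside the interval of the reported value under every alternative run. The shares ran from 15.8 to 22.9%, from 30.1 to 37.8% and from 9.47 to 12.5%, and the median level from 2583 to 2879 CPM. As a mean over cells in place of the median, the class I level was 2945 CPM. The share of cells with both H2-Aa and H2-Ab1 came to 0 on plate 2 alone, without the cell of the highest class II level, at 5 or 20 reads and after thinning to 200000 gene counts, since it rests on 1 read, and the co-detection ratio of H2-Aa and H2-Ab1 could not be computed there. The class II share of MHC reads was 4.41% on plate 1, 5.83% on plate 2, 5.16% without cells under 2500 genes, 4.76% without the cell of the highest class II level, 4.102% per principal transcript length and 3.03% per union of exons. The log2 difference of H2-D1 and H2-K1 was 3.29 as a mean over cells in place of the median. Of the 5 genes most like class I, 0 were kept on plate 2; of those most like class II, 3 were kept with Pearson's r, 1 on plate 1 and 0 on plate 2. The causes were not tested. Without H2-DMa, any class II gene was read in 69.9% of cells. No paired analysis was possible because the 143 cells form 1 group. Depth limits every share of cells: a gene not read in a cell may still be transcribed there.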
